A study of Homo sapiens with 30 samples.

Results

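Prostate epithelium carries surface antigens and secretes proteins that serve as clinical markers and drug targets. The 9 genes described here were FOLH1, STEAP1, STEAP2, STEAP4, PSCA, TRPM8, SLC45A3, ACPP and MSMB. They were taken by symbol from the 23710 gene symbols with read counts and the 23616 with FPKM, and all 9 were found in both. RNA was sequenced from 30 samples in 10 conditions of 3 replicates each. Parental V16D, a castration-resistant derivative of the LNCaP prostate cancer line, and resistant MR49F were grown in full serum and treated for 24 h with DMSO vehicle or 10 μM enzalutamide, an antiandrogen drug. MR49F arose from LNCaP tumors in castrated mice given enzalutamide. For routine culture the medium of MR49F held 10 μM enzalutamide. How long its vehicle samples were without the drug is not stated. MR49F cells were also kept for 72 h in charcoal-stripped serum, which is depleted of steroids. They were then treated for 24 h with vehicle (DMSO and ethanol), 10 μM enzalutamide, 1 nM dihydrotestosterone (DHT), 500 nM JQ-1, DHT with JQ-1, or enzalutamide with JQ-1. For the comparison with JQ-1, however, a figure legend of the study refers to a treatment of 3 days, so that its duration is uncertain. JQ-1 blocks the bromodomains with which BET proteins bind acetylated chromatin. Each cell line is a single model, so that a difference between V16D and MR49F cannot be told apart from other differences between these lines.

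The products of these genes have distinct roles. FOLH1 encodes prostate-specific membrane antigen (PSMA), a surface enzyme that removes glutamate from folates and from a neural peptide and is the target of PSMA imaging and radioligand therapy. STEAP1, STEAP2 and STEAP4 belong to a family of six-transmembrane proteins, some of which reduce iron and copper at membranes, and STEAP1 is a target of antibody-based therapy. PSCA is a lipid-anchored protein of the LY6 family, and TRPM8 is a cation channel opened by cold and menthol. SLC45A3, or prostein, is a membrane transporter of prostate cells, ACPP is prostatic acid phosphatase, and MSMB is a small protein of seminal plasma. Androgen raises some prostate genes and lowers others. KLK3 (prostate-specific antigen) and TMPRSS2 (a surface protease), both known to be raised by androgen, were followed as reference genes.

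The reads assigned to genes numbered 13170504 to 21154962 in the full-serum samples and 982130 to 1813262 in the stripped-serum samples. The counted share of reads was 73.0% to 77.8% in full serum and 5.13% to 7.66% in stripped serum. The 425 genes with antisense names took 0.231% to 0.297% of gene reads in full serum and 1.22% to 1.82% in stripped serum. The part of this difference in the results was not tested, and FPKM values (fragments scaled to transcript length and library), which the authors computed from the alignments separately from the counts, are therefore given beside counts. In full serum MR49F vehicle replicate 1 stood apart. Its counts differed from those of replicates 2 and 3 by a chi-square per degree of freedom of 9.87 and 11.6. The other full-serum replicate pairs had 1.25 to 2.24. This value grows with depth, so the 1.13 to 2.82 of the stripped-serum pairs, on fewer reads, cannot be set against these. Their highest value was that of enzalutamide replicates 1 and 3, and this replicate 3 had the lowest counted share (5.13%). Results that rest on MR49F full-serum vehicle replicate 1 are given with and without it. All 6 luminal markers were expressed, with summed FPKM of 532 to 2860, while the 3 basal markers summed to at most 0.352 FPKM and the leukocyte and endothelial markers to at most 0.797 FPKM. The stroma markers summed to 0.711 to 2.68 FPKM and the neuroendocrine markers to 0.61 to 9.72 FPKM. The study calls the replicates biological, each made from combined culture wells, and whether they were grown on separate occasions is not stated, so that p-values measure the spread between these wells.

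The genes lie on several chromosomes (GRCh37, annotation of GENCODE release 44). SLC45A3 is at chr1:205626979-205649637 on the minus strand, TRPM8 at chr2:234826018-234928166 on the plus strand, ACPP (now ACP3) at chr3:132036213-132087146 on the plus strand and FOLH1 at chr11:49166644-49230190 on the minus strand. STEAP1 (chr7:89783770-89794143, plus) and STEAP2 (chr7:89796904-89867451, plus) are neighbors, and STEAP4 (chr7:87900207-87936209, minus) lies on the same chromosome. MSMB is at chr10:51547642-51562515 (plus).

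The bases just upstream of the start are printed for SLC45A3, TRPM8 and ACPP, which had large changes with enzalutamide or DHT, and for KLK3 as reference (RefSeq, build GRCh38.p14, 250 bases, 5′ to 3′). Capitals mark the hexamer AGAACA, an arm of the androgen response element, or TATAAA.
SLC45A3, chr1:205680510-205680759, minus strand: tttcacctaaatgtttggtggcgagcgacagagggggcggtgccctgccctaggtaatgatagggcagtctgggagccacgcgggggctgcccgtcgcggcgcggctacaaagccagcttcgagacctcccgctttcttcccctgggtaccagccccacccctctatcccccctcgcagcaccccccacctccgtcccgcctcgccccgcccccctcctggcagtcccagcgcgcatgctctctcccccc
TRPM8, chr2:233917123-233917372, plus strand: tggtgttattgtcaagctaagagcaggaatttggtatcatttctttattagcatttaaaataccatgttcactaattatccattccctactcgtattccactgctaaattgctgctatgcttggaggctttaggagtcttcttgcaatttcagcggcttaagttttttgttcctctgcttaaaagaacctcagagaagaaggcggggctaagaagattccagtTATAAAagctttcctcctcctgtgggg
ACPP, chr3:132317157-132317406, plus strand: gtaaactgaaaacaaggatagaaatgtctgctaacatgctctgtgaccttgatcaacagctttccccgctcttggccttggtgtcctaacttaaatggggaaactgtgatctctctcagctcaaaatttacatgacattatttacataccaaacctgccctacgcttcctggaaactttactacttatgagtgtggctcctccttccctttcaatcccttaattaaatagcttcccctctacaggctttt
KLK3, chr19:50854665-50854914, plus strand: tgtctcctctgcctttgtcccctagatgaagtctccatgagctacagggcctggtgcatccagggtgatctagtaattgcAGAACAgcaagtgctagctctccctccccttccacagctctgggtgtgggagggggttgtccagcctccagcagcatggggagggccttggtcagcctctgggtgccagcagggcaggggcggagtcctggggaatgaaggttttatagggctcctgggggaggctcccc
AGAACA or its complement TGTTCT was searched in windows of 300 bases around gene starts and was present in 14.8% of all 35116 windows. In KLK3 it began 170 bases before the start. Of the 9 genes, 6 had windows in the table, 12 in all, and the hexamer was found in 1 of them, an alternative start of TRPM8. The whole androgen response element (AGAACA, a spacer of NNN, TGTTCT) was found in 1 of all windows and in none of these genes. TATAAA was searched on the gene's strand only after the sequences had been seen. It was present in 7.33% of all windows, began 27 bases before the TRPM8 start printed here, and was also found in 1 of the 2 STEAP2 windows. These matches describe the letters of a short window and say nothing about distant sites.

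The plot of FPKM by sample shows that the genes fell into abundant and scarce ones. Condition means reached 427 FPKM for FOLH1, 250 for STEAP2, 239 for SLC45A3, 209 for ACPP and 174 for STEAP1. PSCA, STEAP4, TRPM8 and MSMB stayed at or below 8.95, 8.89, 8.70 and 3.63 FPKM, respectively, in every condition mean. ACPP had the widest span, 6.81 on the log2(FPKM + 1) scale, followed by SLC45A3 with 4.45, while STEAP2 spanned 1.77. Levels in full and stripped serum are set side by side without a test, since serum, experiment and counted share differ together. In MR49F under vehicle the mean FPKM in full and stripped serum was 158 and 422 for FOLH1, 14.9 and 209 for ACPP, 86.7 and 9.97 for SLC45A3, and 4.89 and 0.101 for TRPM8. FOLH1 and ACPP were thus higher in stripped serum, and SLC45A3 and TRPM8 higher in full serum, with no overlap of samples.

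**Figure D1:**
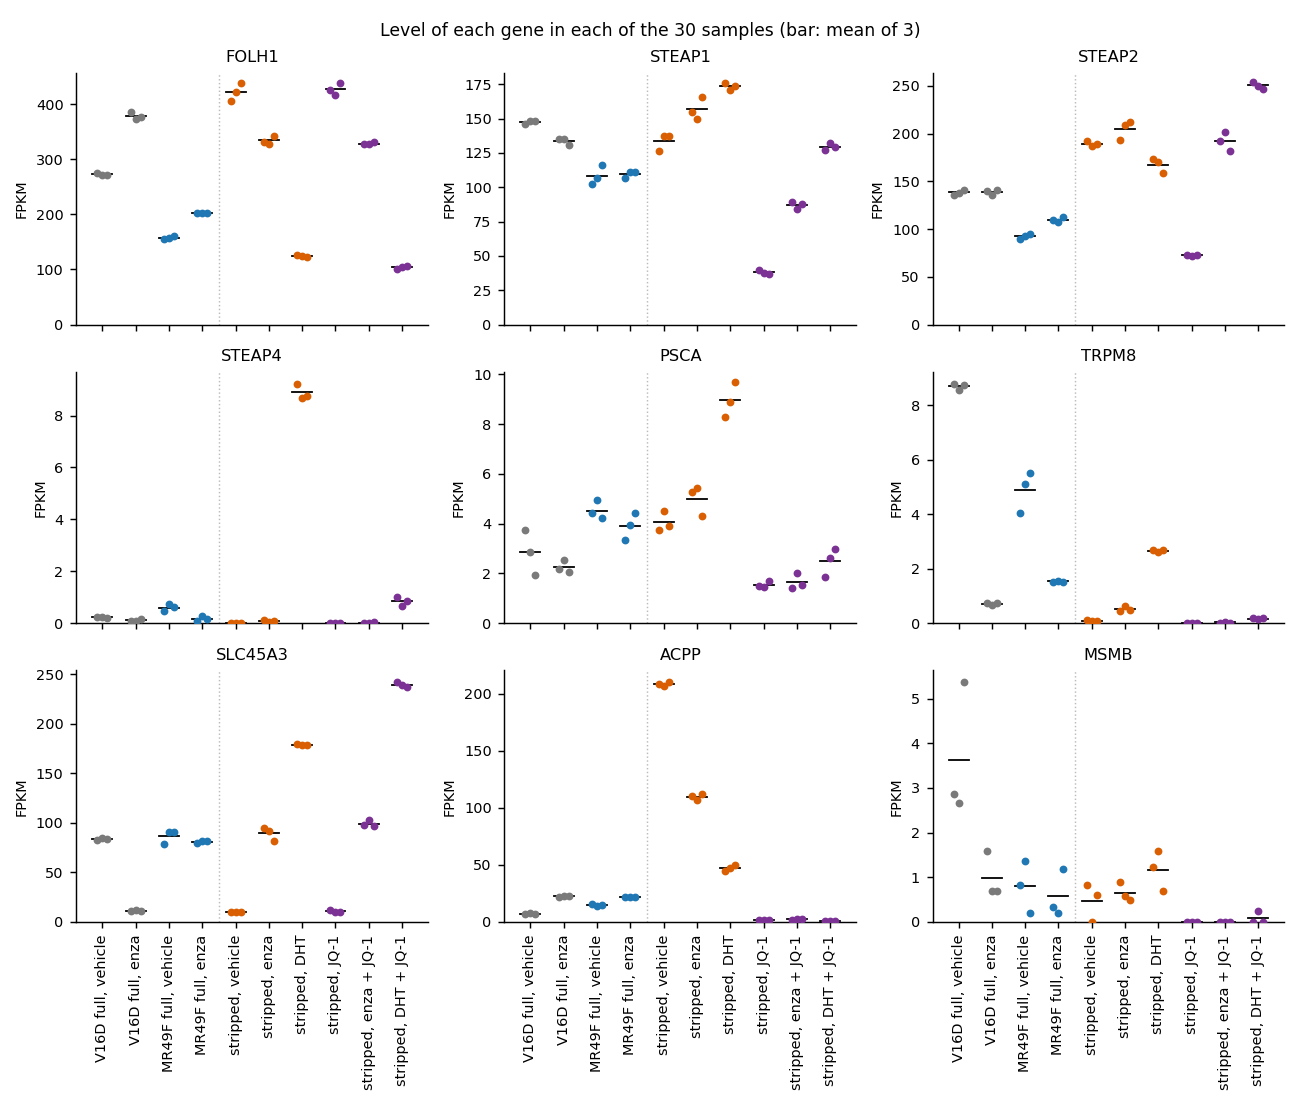
FPKM of each of the 9 genes (linear axis from 0, a separate scale for each gene) in the 30 samples, 3 points a condition, with the mean as a bar; grey is V16D and blue MR49F in full serum, orange MR49F in stripped serum without JQ-1 and purple with JQ-1. SLC45A3 and ACPP trade places between vehicle (9.97 and 209 FPKM) and DHT (178 and 47.2 FPKM) in stripped serum. ACPP is near 0 in all 3 conditions with JQ-1. SLC45A3 averages 10.6 FPKM with JQ-1 alone, 99.1 with enzalutamide and JQ-1, and 239 with DHT and JQ-1.

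The order of conditions differed between genes. FOLH1 was highest with JQ-1 alone and with vehicle in stripped serum, whose samples overlapped (417 to 439 and 405 to 439 FPKM), and lowest with DHT and JQ-1 together (101 to 106 FPKM). SLC45A3 was highest with DHT and JQ-1 together (237 to 242 FPKM), and its 3 lowest conditions, V16D with enzalutamide, JQ-1 alone and vehicle in stripped serum, overlapped from each to the next (9.57 to 11.8 FPKM in all). ACPP was lowest in the 3 conditions with JQ-1, at 0.79 to 2.41 FPKM. TRPM8 was highest in V16D under vehicle (8.58 to 8.79 FPKM). STEAP4 exceeded 1.02 FPKM only in the 3 DHT samples without JQ-1. MSMB was highest in V16D under vehicle, at 2.67 to 5.36 FPKM, and its other conditions, at no more than 1.59 FPKM, overlapped from each to the next.

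The resistant line was first compared with the parental line under vehicle in full serum. MR49F had less FOLH1, STEAP1, STEAP2, TRPM8 and MSMB mRNA and more STEAP4, PSCA and ACPP mRNA than V16D. In all, 8 of 9 genes passed an adjusted p of 0.05 in edgeR's quasi-likelihood test, where 63.7% of the 14013 genes tested did. FOLH1 measured 275, 271 and 272 FPKM in the V16D samples and 155, 158 and 160 in those of MR49F. Its groups did not overlap, and it was 1.67-fold lower in counts (log2 fold change -0.74, SE 0.0416, adjusted p = 3.52e-08). ACPP measured 6.74, 7.57 and 6.75 FPKM in V16D and 15.7, 14.2 and 14.8 in MR49F, a rise of 2.17-fold (log2 fold change 1.12, SE 0.0760, adjusted p = 1.63e-07). STEAP1 fell 1.33-fold, STEAP2 1.48-fold and TRPM8 1.81-fold (adjusted p = 1.22e-05, 2.55e-07 and 1.95e-06). The scarce STEAP4 rose 2.73-fold and PSCA 1.55-fold, and MSMB fell 3.51-fold (adjusted p = 0.000171, 0.00911 and 0.000859). The PSCA call was lost in limma on log2(FPKM + 1) without a filter (adjusted p = 0.0571) and in the equal-variance two-group test (0.087). SLC45A3 did not pass (log2 fold change 0.06, adjusted p = 0.345), whereas KLK3 was 1.99-fold higher in MR49F (adjusted p = 2.5e-08). Without MR49F vehicle replicate 1, all 9 genes passed, as did 68.6% of all genes, and SLC45A3 had a log2 fold change of 0.11 (adjusted p = 0.00098).

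Enzalutamide in full serum changed most of these genes in V16D. SLC45A3, TRPM8, MSMB and STEAP4 fell strongly and STEAP1 slightly, while FOLH1 and ACPP rose, so that 7 of 9 genes passed against 37.5% of 14079 genes. SLC45A3 measured 82.3, 84.4 and 83.4 FPKM under vehicle and 10.9, 11.7 and 11.3 with enzalutamide. Its groups were far apart, and it fell 7.48-fold (log2 fold change -2.90, SE 0.0324, adjusted p at or below 1e-300). TRPM8 went from 8.79, 8.58 and 8.73 FPKM to 0.752, 0.657 and 0.758 and fell 14.2-fold (log2 fold change -3.83, SE 0.0722, adjusted p = 3.43e-264), beside falls of 3.7-fold for KLK3 and 5.57-fold for TMPRSS2. MSMB had 21, 18 and 28 counts under vehicle and 11, 3 and 6 with enzalutamide and fell 3.59-fold (adjusted p = 1.17e-06). Its call was lost in the equal-variance two-group test (adjusted p = 0.0686). STEAP4 had 20, 26 and 18 counts and then 8, 7 and 11, a fall of 2.64-fold (adjusted p = 0.000129).

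The genes that rose in V16D were FOLH1, abundant in all conditions, and ACPP, low in this line. ACPP reached 21.8, 23.0 and 22.4 FPKM with enzalutamide and rose 2.99-fold (log2 fold change 1.58, SE 0.0488, adjusted p = 3.24e-146). FOLH1 reached 385, 373 and 377 FPKM and rose 1.36-fold (log2 fold change 0.44, SE 0.0226, adjusted p = 1.46e-67). All treated samples of both genes lay above all vehicle samples. STEAP1 fell 1.12-fold (adjusted p = 2e-07), and STEAP2, at 136 to 141 FPKM in both groups, had a log2 fold change of -0.03 (adjusted p = 0.269). PSCA did not pass (log2 fold change -0.33, adjusted p = 0.109), except without vehicle replicate 3 (-0.51, adjusted p = 0.0173).

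In MR49F in full serum the same drug left SLC45A3 near its vehicle level. It measured 78.1, 91.1 and 90.9 FPKM under vehicle and 79.6, 81.4 and 81.2 with enzalutamide, and the groups overlapped (log2 fold change -0.14, SE 0.0503, adjusted p = 0.105; in a single fit of all full-serum groups -0.15, adjusted p = 0.0134). In all, 5 of 8 genes that passed the filter on low counts also passed the test, where 8.48% of 13927 genes did. TRPM8 went from 4.06, 5.11 and 5.5 FPKM to 1.52, 1.57 and 1.53 and fell 3.41-fold (log2 fold change -1.77, SE 0.0975, adjusted p = 2.63e-06). STEAP4 had 36, 78 and 45 counts and then 6, 24 and 18, and fell 4.1-fold (adjusted p = 0.00211), a call lost in limma on log2(FPKM + 1) without a filter (0.0709) and in the equal-variance two-group test (0.113). ACPP rose 1.43-fold to 21.4 to 21.7 FPKM, FOLH1 1.25-fold to 202 FPKM in each sample, and STEAP2 1.15-fold (adjusted p = 0.000405, 0.000632 and 0.0128). STEAP1 and PSCA did not pass (adjusted p = 0.791 and 0.283), and MSMB, with 1 to 10 counts in each sample, was not tested. KLK3 did not pass either (log2 fold change -0.09, adjusted p = 0.341), while TMPRSS2 fell 1.14-fold (adjusted p = 0.0255). Without vehicle replicate 1, which had the lowest SLC45A3 level of its group, 6 of 8 genes and 17.8% of all genes passed, and SLC45A3 fell with a log2 fold change of -0.20 (adjusted p = 5.97e-07). Leaving out any treated replicate lowered the share of all genes to between 2.92% and 3.27%, and leaving out vehicle replicate 2 to 4.61%, with 4 of 8 genes passing. STEAP2 was the gene lost in each of these fits (highest adjusted p = 0.129).

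The difference between the lines was tested as an interaction, the enzalutamide change in MR49F minus that in V16D. It passed for 4 of 9 genes, SLC45A3, TRPM8, ACPP and STEAP2, against 6.95% of 14471 genes. For SLC45A3 the difference was 2.75 on the log2 scale (SE 0.0603, adjusted p = 3.86e-17) and for TRPM8 2.05 (SE 0.132, adjusted p = 9.62e-10), so that both fell less in MR49F. For ACPP it was -1.07 (SE 0.0826, adjusted p = 1.52e-08), a smaller rise in MR49F, where the vehicle level was already higher. For STEAP2 it was 0.22 (SE 0.0450, adjusted p = 0.00322). The rise of FOLH1 was not shown to differ between the lines (-0.13, SE 0.0448, adjusted p = 0.103), although it passed without MR49F vehicle replicate 1 (-0.12, adjusted p = 0.0218) and with DESeq2 (adjusted p = 0.0364). STEAP1 did not pass (0.13, adjusted p = 0.158) except without MR49F vehicle replicate 3 (adjusted p = 0.0438), and PSCA, STEAP4 and MSMB did not pass (adjusted p = 0.875, 0.523 and 0.466). Without MR49F vehicle replicate 1, 5 of 9 genes and 10.4% of all genes passed, and without its replicate 3, 5 of 9 and 10.8%. KLK3 and TMPRSS2 differed by 1.79 and 2.28 (adjusted p = 4.9e-14 and 4.4e-16).

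In stripped serum enzalutamide raised SLC45A3 in MR49F and lowered ACPP and FOLH1. SLC45A3 measured 10.1, 10.3 and 9.57 FPKM under vehicle and 95.1, 91.7 and 81.6 with enzalutamide, on 42, 43 and 27 counts and 418, 388 and 206 counts. It rose 8.95-fold (log2 fold change 3.16, SE 0.145, adjusted p = 3.27e-11), and every treated sample exceeded every vehicle sample. The references KLK3 and TMPRSS2 rose 2.92-fold and 4.18-fold (adjusted p = 2.02e-10 and 4.06e-10). ACPP measured 209, 207 and 210 FPKM under vehicle and 110, 107 and 112 with enzalutamide, and fell 1.93-fold (log2 fold change -0.95, SE 0.0998, adjusted p = 3.89e-06). The ACPP call was lost in the equal-variance two-group test (adjusted p = 0.0632). FOLH1 went from 405, 422 and 439 FPKM to 332, 328 and 342. Its groups did not overlap and it fell 1.21-fold in counts (adjusted p = 0.047), a call that was lost when vehicle replicate 1 or 2 or any treated replicate was left out (highest adjusted p = 0.199), with DESeq2 (0.15) and in the equal-variance two-group test (0.119), and kept by limma on log2(FPKM + 1) (log2 fold change -0.34, adjusted p = 0.000666). In all, 3 of the 5 genes tested passed, against 7.26% of 11131 genes. The share of all genes fell to 3.67% without vehicle replicate 1, 4.26% without vehicle replicate 2 and 4.05% without enzalutamide replicate 2, each with 2 of 5 genes passing.

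STEAP1 and STEAP2 did not pass with enzalutamide in stripped serum (log2 fold changes 0.31 and 0.19, adjusted p = 0.134 and 0.274), although STEAP1 passed in the FPKM fit (0.24, adjusted p = 0.00815) and STEAP2 without enzalutamide replicate 3 (adjusted p = 0.0489). PSCA, STEAP4, TRPM8 and MSMB had too few counts for the test. TRPM8 had 1 count in all under vehicle and 16 with enzalutamide, a ratio of 15.8 after scaling with a 95% exact interval of 2.46 to 663 that covers counting error only. Its FPKM were 0.12, 0.099 and 0.085 and then 0.457, 0.642 and 0.499. STEAP4 had 4 and 5 counts in all, while its mean FPKM was 0.00746 and then 0.0869, without overlap of samples.

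DHT moved the same genes further and added others. In all, 7 of 8 genes tested passed, 5 higher and 2 lower, where 37.5% of 11004 genes passed. STEAP4, TRPM8 and PSCA, too sparse to be tested with enzalutamide, passed the filter on counts here through their DHT samples. The filter thus partly set this tally. SLC45A3 reached 179, 178 and 178 FPKM with DHT and rose 17.0-fold over vehicle (log2 fold change 4.09, SE 0.124, adjusted p = 2.09e-18). STEAP4 had 0, 2 and 2 counts under vehicle and 31, 35 and 39 with DHT (log2 fold change 4.70, SE 0.447, adjusted p = 5.91e-09; 4.04 without vehicle replicate 1), at 9.22, 8.68 and 8.77 FPKM with DHT. TRPM8 had 48 counts with DHT against 1 under vehicle, a ratio of 47.7 with a 95% exact interval of 8.16 to 1920, and its FPKM were 2.68, 2.63 and 2.69 with DHT. STEAP1 rose 1.52-fold in counts (adjusted p = 0.000277), and from 126 to 137 FPKM to 171 to 176 FPKM. It did not pass the equal-variance two-group test (adjusted p = 0.0751). PSCA rose 2.03-fold (adjusted p = 0.0428), a call lost with DESeq2 (adjusted p = 0.17), with the replicate number as a block (adjusted p = 0.0644) and when vehicle replicate 2 or 3 or any DHT replicate was left out (highest adjusted p = 0.13). Its FPKM were 3.75, 4.51 and 3.92 under vehicle and 8.27, 8.9 and 9.68 with DHT, and limma on log2(FPKM + 1) called it (0.98, adjusted p = 4.44e-06).

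FOLH1 and ACPP were the genes that fell with DHT. ACPP went to 44.6, 47.5 and 49.5 FPKM and fell 4.41-fold from vehicle (log2 fold change -2.14, SE 0.0987, adjusted p = 5.5e-15). FOLH1 went to 126, 124 and 122 FPKM and fell 3.22-fold (log2 fold change -1.69, SE 0.0862, adjusted p = 4.17e-14). Vehicle, enzalutamide and DHT thus formed 3 separate levels without overlap for both genes, and in the opposite order for SLC45A3. STEAP2 did not pass (log2 fold change -0.12, adjusted p = 0.28), but it was lower in the FPKM fit (-0.18, adjusted p = 0.00564), with 187 to 192 FPKM under vehicle and 159 to 173 with DHT. MSMB had at most 2 counts in any stripped-serum sample and was not tested.

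DHT at 1 nM was also compared directly with enzalutamide at 10 μM. SLC45A3 was 1.88-fold higher with DHT (log2 fold change 0.91, SE 0.0987, adjusted p = 9.42e-07), STEAP4 21.0-fold higher and TRPM8 3.16-fold higher (adjusted p = 4.37e-08 and 0.00605). By mean FPKM the ratios were 102 for STEAP4 and 5.01 for TRPM8, and the TRPM8 call was lost in the equal-variance two-group test (adjusted p = 0.123). FOLH1 was 2.69-fold lower, ACPP 2.31-fold lower and STEAP2 1.24-fold lower with DHT (adjusted p = 2.81e-10, 8.48e-08 and 0.0221). The STEAP2 call was lost with DESeq2 (adjusted p = 0.0733), with the replicate number as a block (adjusted p = 0.0621) and when enzalutamide replicate 1 or 2 or DHT replicate 2 or 3 was left out (highest adjusted p = 0.12). STEAP1 and PSCA did not pass in counts (log2 fold changes 0.28 and 0.33, adjusted p = 0.0833 and 0.632) and were higher with DHT in the FPKM fit (0.15 and 0.73, adjusted p = 0.0245 and 8.71e-05). In all, 6 of 8 genes passed against 19.4% of 10916 genes. Here too STEAP4, TRPM8 and PSCA passed the filter on counts through their DHT samples, which partly set the tally. Both ligands are measured against the same vehicle samples, so that their changes are not independent.

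The enzalutamide change in stripped serum minus that in full serum, both in MR49F, was tested as a second interaction. It passed for 5 of 8 genes, against 11.4% of 14178 genes. The difference was 3.36 on the log2 scale for SLC45A3 (SE 0.145, adjusted p = 1.21e-13) and -1.42 for ACPP (SE 0.109, adjusted p = 2.82e-09), since ACPP rose in full serum and fell in stripped serum. FOLH1 turned in the same way (-0.55, SE 0.0804, adjusted p = 4.97e-05). TRPM8 differed by 5.75 (SE 0.951, adjusted p = 0.00021), a fitted value that rests on 1 vehicle count in stripped serum and was 10.03 without the replicate that holds it. STEAP1 differed by 0.38 (adjusted p = 0.0378) and did not pass with DESeq2 size factors (adjusted p = 0.0517), in the FPKM fit (adjusted p = 0.055) or when any full-serum enzalutamide replicate, full-serum vehicle replicate 2 or 3, stripped-serum vehicle replicate 1 or stripped-serum enzalutamide replicate 1 or 2 was left out (highest adjusted p = 0.203). STEAP2, STEAP4 and PSCA did not pass (adjusted p = 0.892, 0.224 and 0.237), although PSCA passed in the FPKM fit (0.42, adjusted p = 0.0435). Without MR49F vehicle replicate 1 of the full-serum group, 5 of 7 genes and 14.9% of all genes passed. Serum and experiment cannot be told apart in this contrast.

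**Figure D2:**
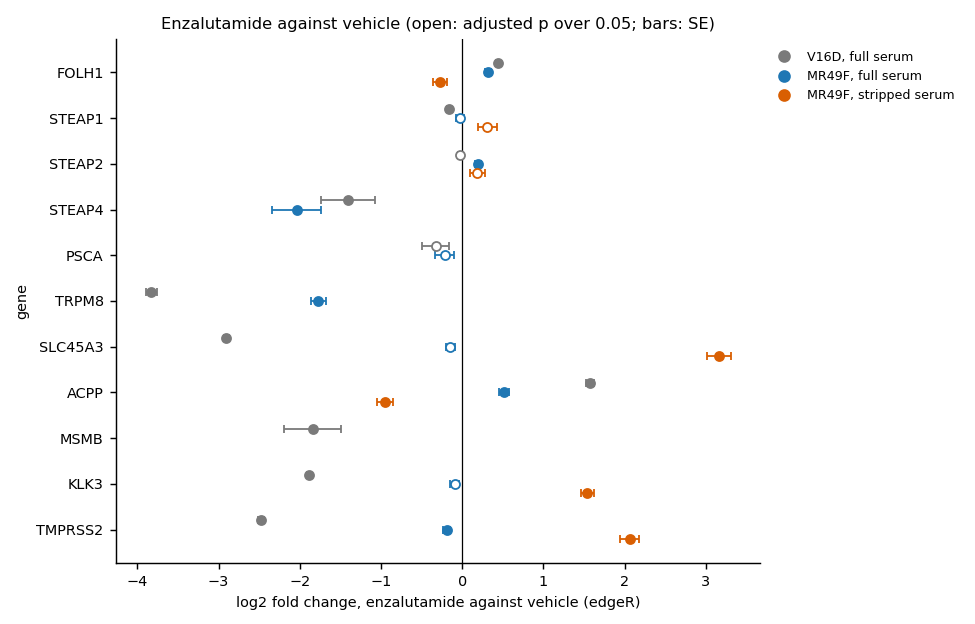
Log2 fold change of enzalutamide against vehicle from edgeR, with its SE as a bar, for each gene tested and for KLK3 and TMPRSS2; grey is V16D and blue MR49F in full serum, orange MR49F in stripped serum, and filled points passed an adjusted p of 0.05. SLC45A3 lies at -2.90, -0.14 and 3.16 in the 3 settings and ACPP at 1.58, 0.52 and -0.95.

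JQ-1 lowered ACPP, STEAP1 and STEAP2 and was not shown to change SLC45A3. JQ-1 alone was compared with vehicle in stripped serum, and 4 of 5 genes tested passed where 46.6% of 11332 genes did. ACPP passed the filter on counts through its vehicle samples. ACPP went from 209, 207 and 210 FPKM to 1.74, 1.72 and 2.08, and from 905, 705 and 566 counts to 6, 6 and 11. It fell 107-fold (log2 fold change -6.75, SE 0.154, adjusted p = 4.23e-36), against 34.5-fold for KLK3 and 2.29-fold for TMPRSS2. SLC45A3 measured 11.8, 9.77 and 10.2 FPKM with JQ-1, overlapping vehicle (log2 fold change 0.12, SE 0.193, adjusted p = 0.651). STEAP1 fell from 126 to 137 FPKM to 37.2 to 40.1 FPKM, or 2.96-fold in counts, and STEAP2 from 187 to 192 FPKM to 71.4 to 73.2 FPKM, or 2.13-fold in counts (adjusted p = 6.38e-13 and 4.41e-17). FOLH1 rose 1.15-fold in counts (adjusted p = 0.0129), but its FPKM overlapped vehicle and did not pass (log2 fold change 0.02, adjusted p = 0.696), and the call was lost without JQ-1 replicate 1 or 3. PSCA, too sparse in counts, measured 1.5, 1.46 and 1.69 FPKM against 3.75 to 4.51 under vehicle (limma log2 fold change -0.99, adjusted p = 3.48e-06). TRPM8 had 0 counts in all 3 JQ-1 samples and 1 under vehicle, so that no fold is given.

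With DHT present, JQ-1 lowered STEAP1, STEAP4, TRPM8, PSCA and ACPP and raised SLC45A3 and STEAP2. In all, 7 of 8 genes passed, against 54.7% of 10779 genes. STEAP4, TRPM8, PSCA and ACPP passed the filter on counts through the DHT samples without JQ-1, which partly set the tally. SLC45A3 went from 179, 178 and 178 FPKM with DHT to 242, 239 and 237 with DHT and JQ-1 and rose 1.43-fold (log2 fold change 0.52, SE 0.0753, adjusted p = 3.66e-07). STEAP2 went from 173, 170 and 159 FPKM to 254, 250 and 247 and rose 1.72-fold (log2 fold change 0.78, SE 0.0739, adjusted p = 4.28e-11), although JQ-1 alone had lowered it. In both genes the groups did not overlap. STEAP4 fell 9.74-fold, to 1.02, 0.681 and 0.855 FPKM, and TRPM8 fell 10.3-fold, from 48 counts in all to 5 (adjusted p = 1.98e-10 and 1.47e-06). STEAP1 fell 1.34-fold and PSCA 2.73-fold (adjusted p = 0.000783 and 0.00417). The PSCA call was lost without replicate 1 of the combined treatment (adjusted p = 0.051), and the STEAP1 call in the equal-variance two-group test (0.0779). ACPP fell from 156, 135 and 160 counts to 3, 1 and 0, and from 44.6 to 49.5 FPKM to 0.79 to 0.91 (log2 fold change -6.88, SE 0.286, adjusted p = 4.08e-21). Without replicate 1 of the combined treatment the log2 fold change of ACPP was -8.00 and that of TRPM8 -2.71, and without its replicate 3 that of TRPM8 was -4.07. FOLH1 did not pass in counts (log2 fold change -0.14, adjusted p = 0.172) and was lower in the FPKM fit (-0.25, adjusted p = 0.000184).

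With enzalutamide present, JQ-1 lowered ACPP and STEAP1, and 2 of 5 genes passed against 45.1% of 10863 genes. ACPP passed the filter on counts through its samples without JQ-1. ACPP fell 56.2-fold to 1.92, 2.41 and 2.31 FPKM (log2 fold change -5.81, SE 0.199, adjusted p = 1.17e-18). STEAP1 fell 1.62-fold to 84.2 to 88.9 FPKM (adjusted p = 1.57e-05). SLC45A3 measured 97.7, 103 and 96.6 FPKM with both agents against 81.6 to 95.1 with enzalutamide alone, and did not pass in counts (log2 fold change 0.18, SE 0.0979, adjusted p = 0.139), while limma on FPKM put it just past the threshold (0.15, adjusted p = 0.044). STEAP2 and FOLH1 did not pass (log2 fold changes -0.06 and 0.02, adjusted p = 0.618 and 0.875). TRPM8 had 16 counts with enzalutamide and 1 with both, a ratio of 0.0752 with an exact interval of 0.00179 to 0.484, and STEAP4 had 5 and 2. The effects of JQ-1 under vehicle, enzalutamide and DHT were not tested against each other. SYP, a neuroendocrine marker, rose with JQ-1 under vehicle, enzalutamide and DHT (5.05-fold, 4.24-fold and 4.26-fold, adjusted p = 2.1e-06, 4.12e-06 and 4.36e-07) and took the summed neuroendocrine list to its highest values. SYP averaged 1.4 FPKM under vehicle and 9.14 with JQ-1 alone, while CHGA averaged 0.0385 and 0.0858 FPKM and INSM1 had no counts in either group. The part of SYP in these results was not tested.

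**Figure D3:**
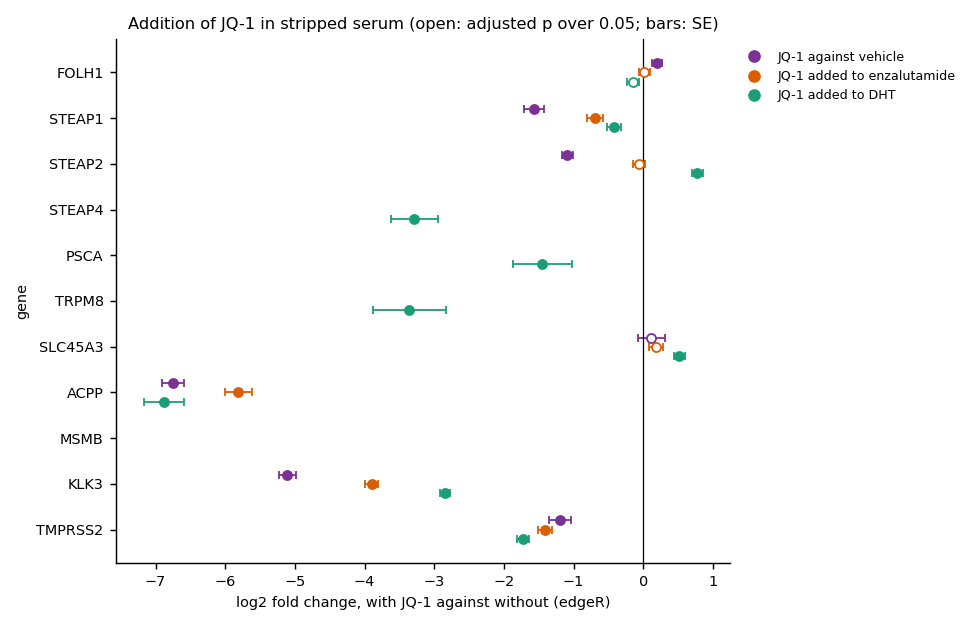
Log2 fold change with JQ-1 against without it in stripped serum from edgeR, with its SE as a bar, under vehicle (purple), enzalutamide (orange) and DHT (green); filled points passed an adjusted p of 0.05 and genes with too few counts have no point. ACPP lies between -6.88 and -5.81, SLC45A3 between 0.12 and 0.52, and STEAP2 moves from -1.09 under vehicle to 0.78 under DHT.

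The ligands were then compared in the presence of JQ-1. DHT raised SLC45A3 22.7-fold over JQ-1 alone (log2 fold change 4.51, SE 0.0956) and enzalutamide 9.39-fold (3.23, SE 0.114), with adjusted p = 2.55e-43 and 2.42e-84. STEAP1 and STEAP2 both rose 3.39-fold with DHT (adjusted p = 9.39e-18 and 8.5e-33), and 2.27-fold and 2.33-fold with enzalutamide (adjusted p = 2.59e-13 and 1.43e-54). STEAP2 measured 73.1, 71.4 and 73.2 FPKM with JQ-1 alone, 192, 202 and 182 with enzalutamide added and 254, 250 and 247 with DHT added, in 3 ranges that did not overlap. FOLH1 fell 4.04-fold with DHT and 1.37-fold with enzalutamide (adjusted p = 7.66e-34 and 1.64e-13). The STEAP1 and FOLH1 calls with enzalutamide were lost in the equal-variance two-group test (adjusted p = 0.194 and 0.109). All 4 genes that passed the filter on counts passed in each comparison, against 22.1% of 10847 genes for DHT and 4.5% of 10708 for enzalutamide. ACPP was not tested in counts and stood at 1.72 to 2.08 FPKM with JQ-1 alone, 1.92 to 2.41 with enzalutamide added and 0.79 to 0.91 with DHT added. STEAP4 had 2 counts with JQ-1 alone and 12 with DHT added, a ratio of 6.18 with an exact interval of 1.38 to 56.9.

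ACPP was annotated with transcripts NM_001099, which gives the secreted enzyme, and NM_001134194, which gives a form with a membrane segment. NM_001134194 made up 13.9% ± 0.973 (SD, n = 3) of ACPP FPKM under vehicle in stripped serum, 19.2% ± 1.29 with enzalutamide and 17.5% to 22.9% in the DHT samples. In full serum it made up 26.8% ± 0.608 in MR49F and 33.8% ± 4.29 in V16D under vehicle, and 23.4% ± 1.32 and 41.8% ± 3.58 with enzalutamide. With JQ-1 alone and with enzalutamide and JQ-1 it reached 56.2% ± 7.74 and 55.8% ± 5.89, where the whole gene stood at 1.72 to 2.41 FPKM. NM_001099 itself went from 180 ± 2.97 FPKM under vehicle to 88.5 ± 1.99 with enzalutamide, 37.7 ± 1.81 with DHT and 0.801 ± 0.0867 with JQ-1. Shares of short reads between transcripts are estimates of the authors' software and were not tested. The main FOLH1 transcript, NM_004476, held 70.0% to 79.6% of FOLH1 FPKM in the condition means, a narrower range than that of ACPP.

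**Figure D4:**
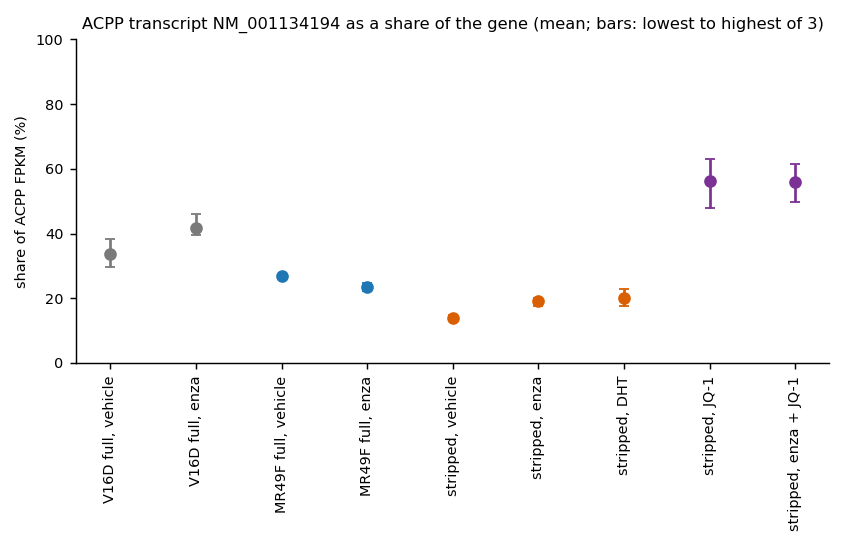
Share of ACPP FPKM, in percent from 0 to 100, assigned to transcript NM_001134194, as the mean of 3 samples with bars from the lowest to the highest; DHT with JQ-1 is left out because the gene was below 1 FPKM. The share runs from 13.9% under vehicle in stripped serum to 56.2% with JQ-1 alone.

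FOLH1 and STEAP1 have near-identical copies, and their values are uncertain to that extent. FOLH1B had 31.2% to 36.6% of the FPKM of FOLH1 in full serum and 15.5% to 18.2% in stripped serum, but at most 0.623% of its counts. STEAP1B had 15.9% to 18.6% of the FPKM of STEAP1 in full serum and 1.82% to 4.51% in stripped serum, and at most 0.42% of its counts. The counts and the FPKM therefore divide reads of these pairs differently. PSCA, at chr8:143751726-143764143 (plus), overlaps exons of JRK on the opposite strand, and since no source states whether counting used strand, their reads may not have been separated. The same holds for STEAP4 and TRPM8, which overlap opposite-strand exons of ENSG00000228113 and ENSG00000237581, neither of them among the counted symbols.

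Lists of relatives and of related prostate genes were counted in the same fits, members included. STEAP4, TRPM8 and PSCA passed the filter on counts through their DHT samples, which partly set the DHT tallies of their lists. Among the 4 tested genes of the STEAP family, none rose and 2 fell in V16D with enzalutamide, and 2 rose and none fell with DHT (medians -0.11 and 0.70, against 0.00 and -0.01 over all genes). In each of these comparisons 37.5% of all genes passed. STEAP3, which reduces endosomal iron, was lower in MR49F than in V16D (log2 fold change -1.04, adjusted p = 2.1e-07), and fell with JQ-1 added to enzalutamide or DHT (log2 fold changes -1.58 and -1.39, adjusted p = 0.00176 and 0.00106). Of the 4 tested folate hydrolase relatives, 3 rose with enzalutamide in V16D (median 0.39) and all 4, FOLH1B included, were lower in MR49F (median -1.82, against 0.00 and -0.01 over all genes). Of all genes, 18.2% rose in the first comparison and 31.8% were lower in the second. NAALADL2 fell by 4.17 on the log2 scale with JQ-1 alone (adjusted p = 1.25e-09). Of 5 tested TRPM channels, 3 fell in V16D with enzalutamide, and 3 of 4 rose with DHT, where 19.3% of all genes fell and 19.4% rose, including TRPM4 by 1.13 and TRPM2 by 0.55 (adjusted p = 2.78e-06 and 0.000522). Of 6 tested acid phosphatases, ACPP alone fell and ACPT alone rose with DHT, the latter by 1.67 (adjusted p = 9.89e-05). This share lay near the 37.5% of all genes called. Among SLC45 transporters, only SLC45A3 passed with enzalutamide or DHT in stripped serum, where 3 were tested and 7.26% and 37.5% of all genes passed. With JQ-1 SLC45A2 fell by 4.95 (adjusted p = 1.03e-07). Of 4 tested LY6 proteins, PSCA rose and CD59 fell with DHT, the latter with a log2 fold change of -0.76 (adjusted p = 0.00215). The PSCA call was lost in several other fits, and 37.5% of all genes passed with DHT. Of 6 tested genes of iron and copper uptake, 2 rose with DHT, a share near that of all genes called, the transferrin receptor TFRC by 0.30 and ferritin FTH1 by 0.24 (adjusted p = 0.0349 and 0.0194).

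Other prostate secretory products, a list that includes KLK3, moved with KLK3 in some comparisons and not in others. Of 7 tested, 6 fell and none rose in V16D with enzalutamide (median -1.15), and 5 of 5 and 6 of 6 rose in stripped serum with enzalutamide and DHT (medians 1.54 and 2.63). Of all genes, 19.3% fell in the first of these comparisons, and 4.38% and 19.4% rose in the others. With JQ-1 alone 4 of 4 fell (median -3.52), as did 23.9% of all genes. The number tested changed with the comparison, since the filter on counts admits sparse genes through the group where they are high. The filter can thus partly set these tallies and medians. Between the lines, however, 3 of 7 were higher and 3 lower in MR49F, where KLK3 was higher, and with enzalutamide in MR49F in full serum 1 of 6 fell. Between the lines 31.9% of all genes were higher and 31.8% lower, and 4.62% fell with enzalutamide in MR49F. AZGP1, a zinc-binding glycoprotein of seminal plasma, rose by 2.15 with enzalutamide and 4.45 with DHT (adjusted p = 0.000111 and 5.44e-15). KLK2, a kallikrein protease, fell by 2.77 in V16D with enzalutamide (adjusted p at or below 1e-300) and with JQ-1 fell by 4.30 (adjusted p = 1.75e-24). Of 12 other surface antigens tested in stripped serum, 2 rose and 2 fell with enzalutamide, where 7.26% of all genes passed, and 4 rose and 3 fell with DHT, where 37.5% did. TMEFF2, a transmembrane protein of prostate, rose by 3.10 with enzalutamide and 2.94 with DHT (adjusted p = 1.87e-05 and 4.71e-07). ALCAM, an adhesion molecule, was lower with DHT than with enzalutamide (log2 fold change -1.19, adjusted p = 4.59e-07). Of 10 luminal lineage factors, 6 rose and 4 fell with DHT, against the same 37.5%.

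For each gene the genes with the most similar pattern were found by Pearson's r of mean log2(FPKM + 1) over the 10 conditions, among 6721 genes that varied by at least 1 log2 unit. Condition means share serum, depth and vehicle samples, and the values are a description only. Among the genes nearest to SLC45A3 were ZBTB16 and IGF1R (r = 0.972 for each). Those nearest to FOLH1 were BROX, TOX3 and AIDA (0.963, 0.953 and 0.942), and those nearest to ACPP were RSL24D1, SNX33 and ZNF358 (0.989, 0.987 and 0.982). TRPM8 was most like ELOVL5, TM4SF1 and LOC440905 (0.963, 0.947 and 0.942). STEAP4 was most like C1orf151-NBL1, ORM2 and ORM1 (0.984, 0.968 and 0.967), and PSCA like DNAH5, CSK and DPM3 (0.972, 0.961 and 0.957). STEAP1 and STEAP2 had less close neighbors, led by SNORA24 (0.932) and C7orf63 (0.931), and MSMB was led by ELOVL2 (0.964).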

How the data were processed

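The authors prepared poly(A) RNA as strand-specific libraries, aligned single-end reads to hg19 with TopHat 2.0.9 and deposited HTSeq read counts per RefSeq gene symbol, not normalized. FPKM values that the authors had estimated for each RefSeq transcript with Cufflinks 2.1.1 were also deposited and were added up by gene here. Groups came from the sample labels. Counts were tested with edgeR 4.0.16 in R 4.3.3 (glmQLFit and glmQLFTest, TMM, filterByExpr with a minimum count of 10 and total of 15) in the groups compared only, two-sided, with Benjamini-Hochberg adjustment over all genes tested and a threshold of 0.05. The standard error was taken from the F statistic. FPKM were tested with limma 3.58.1 on log2(FPKM + 1), which understates changes of low genes, for genes that reached 1 FPKM in 3 or more samples. Adjusted p-values below 1e-300 were set to it. Rows that name no gene were left out of library sizes. The strand setting of counting is not stated in the sources used here.

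Alternatives were no filter, DESeq2 size factors, DESeq2 1.42.0, limma with a pseudocount of 0.1 or no filter, a replicate block, a single fit per serum, the study's equal-variance two-group test after a variance filter, and each replicate left out. Scripts were tested on simulated data. The 9 genes and the lists were chosen with earlier results of these data known. Named were the 9 genes, KLK3 and TMPRSS2 in every comparison, from each list at most 2 other genes a comparison with the largest log2 change past the threshold and at least 5 CPM, and the 3 most similar genes; not all are printed. Promoters are RefSeq windows of GRCh38.p14 matched by symbol. Ratios of few counts carry 95% exact intervals. Values of some other genes are not reported here.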

Additional observations from a re-analysis of the deposited data

Results flagged for a closer look

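For the following genes the enzalutamide change differed between the cell lines in full serum or, in MR49F, between the sera, by an interaction test in edgeR. Between the lines (MR49F minus V16D, log2) SLC45A3 differed by 2.75, TRPM8 by 2.05, STEAP2 by 0.22 and ACPP by -1.07 (adjusted p = 3.86e-17, 9.62e-10, 0.00322 and 1.52e-08). Between the sera (stripped minus full, log2) SLC45A3 differed by 3.36, TRPM8 by 5.75, STEAP1 by 0.38, FOLH1 by -0.55 and ACPP by -1.42 (adjusted p = 1.21e-13, 0.00021, 0.0378, 4.97e-05 and 2.82e-09). The TRPM8 value between the sera rests on 1 vehicle count in stripped serum. The STEAP1 value was the one most often lost, with an adjusted p of up to 0.203 when a replicate was left out. Serum and experiment cannot be told apart in the second test.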

How the results depend on the processing

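Deviations of same-numbered replicates correlated weakly at most (from -0.181 to 0.178). This cannot exclude a pairing, least of all at the few counts of stripped serum. With the replicate block the number of the 9 genes called moved in 3 stripped-serum comparisons and in no other. It went from 3 to 4 with enzalutamide (STEAP1, adjusted p = 0.0347), from 7 to 6 with DHT and from 6 to 5 for DHT against enzalutamide. The calls lost in these moves were PSCA with DHT (adjusted p = 0.0644) and STEAP2 for DHT against enzalutamide (adjusted p = 0.0621). The block changed no other call of the 9 genes. The equal-variance two-group test called 3 genes in MR49F with enzalutamide in full serum (5 in the main test), 1 in stripped serum (3) and 2 for enzalutamide with JQ-1 against JQ-1 (4). Limma on log2(FPKM + 1) without a filter called 6 with enzalutamide in stripped serum (3), 6 with JQ-1 added to enzalutamide (2) and 8 for DHT with JQ-1 against JQ-1 (4). For JQ-1 added to enzalutamide, no filter on counts, both filtered limma fits and a single fit of all groups each called 4. The direction of some changes that had not passed turned. STEAP2 with enzalutamide in V16D went from -0.03 to 0.005 in the limma fits, STEAP1 in MR49F in full serum from -0.02 to 0.022, FOLH1 with JQ-1 added to enzalutamide from 0.02 to -0.026, and the serum interaction of STEAP2 from 0.03 to -0.133 or -0.134. With a replicate left out, STEAP1 in MR49F ranged from -0.043 to 0.004, the line interactions of MSMB and PSCA from -0.198 to 1.658 and -0.132 to 0.28, STEAP2 and FOLH1 with JQ-1 added to enzalutamide from -0.152 to 0.006 and -0.014 to 0.06, and the serum interaction of STEAP2 from -0.027 to 0.111. The cause was not tested. For single genes, leaving out a replicate gained 6 calls, lost 29 and left 588 as they were, and other settings gained 24, lost 29 and left 699. Over all genes, limma on log2(FPKM + 1) called 575 against 1181 by edgeR in MR49F with enzalutamide in full serum. In stripped serum it called 4709 against 808 with enzalutamide, 8787 against 4122 with DHT, 6904 against 2122 for DHT against enzalutamide, and 9170 against 5284, 9193 against 4902 and 9344 against 5891 for JQ-1 under vehicle, enzalutamide and DHT. With JQ-1 present it called 1865 against 482 for enzalutamide and 6238 against 2400 for DHT, and 4425 against 1613 for the serum interaction. Few counts in stripped serum limit PSCA, STEAP4, TRPM8 and MSMB.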
